A study of Mus musculus with 2 samples.

Results

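From the 1141 miRNA probes of a mouse array, 9 were taken by name: both arms of the hairpins miR-335, miR-296, miR-483 and miR-675, and the 5p arm of miR-298. These 9 miRNAs lie at 4 imprinted loci, Mest, Gnas, Igf2 and H19, and each had 3 repeat spots per array, 27 spots on each. They were chosen with earlier results of these arrays in view, among them the high ratio of miR-335-5p, so their values are given as a description with no test. The arrays measured lung of untreated wild-type mice and lung of wild-type mice given monocrotaline (MCT), a pyrrolizidine alkaloid toxic to lung endothelium, with which pulmonary arterial hypertension is modelled in rodents. The MCT mice were 14 weeks old and were treated for 30 days, while for the untreated mice no age was stated in the sources used here. There was 1 array per group, hybridised with 2 µg of total RNA, and the sources do not say whether a sample was 1 lung or a pool. No p-value was therefore computed, and each ± gives the standard deviation among the 3 spots of a probe on 1 array (for a ratio, those of both arrays added in quadrature), so animal-to-animal variation is not in it. In whole lung, fewer cells of a type and less RNA per cell cannot be told apart.

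An imprinted gene is expressed mainly from the copy inherited from 1 parent. Mest, also called Peg1, and Igf2, an insulin-like growth factor, are expressed from the paternal copy and promote growth before birth. H19, a long non-coding RNA next to Igf2, is expressed from the maternal copy, is abundant in the fetus and falls in most tissues after birth. miR-335 is cut from an intron of Mest, miR-483 from an intron of Igf2 and miR-675 from an exon of H19, so that each is made from the transcript of its host. In mouse, miR-296 and miR-298 belong to the non-coding transcript Nespas, which runs antisense through the Gnas locus. A miRNA hairpin yields a 5p and a 3p arm, and usually 1 of them is retained in the silencing complex, where its seed, bases 2 to 8, pairs with target mRNAs.

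The mature sequences of the 9 members are shown because the readout is hybridisation to them, and because their base composition differs widely. They are from RefSeq with build GRCm38.p6, and for all 9 the RefSeq sequence was identical to the target sequence given for the array's probe. Capitals mark the seed.
mmu-miR-335-5p: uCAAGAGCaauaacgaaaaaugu
mmu-miR-335-3p: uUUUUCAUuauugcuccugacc
mmu-miR-296-5p: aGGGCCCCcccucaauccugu
mmu-miR-296-3p: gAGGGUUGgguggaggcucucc
mmu-miR-298-5p: gGCAGAGGagggcuguucuuccc
mmu-miR-483-5p: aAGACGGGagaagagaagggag
mmu-miR-483-3p: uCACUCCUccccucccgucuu
mmu-miR-675-5p: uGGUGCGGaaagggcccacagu
mmu-miR-675-3p: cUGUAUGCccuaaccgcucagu
No 2 members shared a seed, and no other probe on the array had the seed of a member. The GC content ran from 30.4% in miR-335-5p to 68.2% in miR-296-3p. Purines made up 95.5% of miR-483-5p and 9.52% of its partner arm miR-483-3p. The target most like miR-335-5p on the array, that of miR-148a-3p, matched it at 13 of 23 bases when aligned without gaps, and the most like of any pair, miR-298-5p and miR-1935, matched at 15 of 23.

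The members lie on 3 chromosomes. miR-335-5p is at chr6:30741314-30741336 and miR-335-3p at chr6:30741354-30741375 on the plus strand of GRCm38.p6, within the span of Mest. miR-483-5p is at chr7:142654968-142654989 within the span of Igf2, and miR-675-5p at chr7:142577112-142577133 within that of H19, both on the minus strand. Their hairpins are 77776 bases apart. miR-296-5p, at chr2:174267093-174267113, and miR-298-5p, at chr2:174267553-174267575, are on the minus strand with 378 bases between their hairpins. Neither lies within the span of a RefSeq gene. The nearest one is Gnasas1, the current symbol of Nespas, 14124 bases from miR-296-5p and 13662 from miR-298-5p. Their place in that transcript is thus not shown by the annotation used here. The hairpins of the 2 members detected on both arrays are shown with the arms in capitals, 5p first.
Mir335: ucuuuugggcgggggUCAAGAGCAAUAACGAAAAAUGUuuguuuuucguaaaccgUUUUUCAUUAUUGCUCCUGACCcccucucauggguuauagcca
Mir483: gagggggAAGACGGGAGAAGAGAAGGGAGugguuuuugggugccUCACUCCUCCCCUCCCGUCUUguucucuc

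Of the 9 members, 4 were detected in untreated lung, miR-335-5p, miR-483-5p, miR-296-5p and miR-298-5p, and 2 of these, miR-335-5p and miR-483-5p, also in MCT lung. A miRNA was taken as detected when at least 2 of its spots exceeded the 95th percentile of the array's 257 empty spots, a scanner intensity of 116 on the untreated array and 284 on that of MCT lung. Among all 1141 miRNAs, 403 (35.3%) were detected in untreated and 316 (27.7%) in MCT lung. The background differed between the arrays: the median empty spot read 101 for untreated lung and 253 for MCT lung, and the miRNA spots had medians of 105 and 226. With the limit taken from the dim miRNA spots instead, 113 and 236, miR-296-5p and miR-298-5p were detected on both arrays. Ratios below are log2 ratios of MCT over untreated lung after background correction and quantile normalization, so each is a difference from the bulk of the miRNAs measured. A miRNA was called higher or lower when it was detected in either library, differed at least 2-fold and had spot values that did not overlap between the arrays. By that rule 17 miRNAs, 4.16% of those detected in either library, were called higher and 9 (2.2%) lower. Of the members, 1 was higher, miR-335-5p, and 0 were lower.

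**Figure D1:**
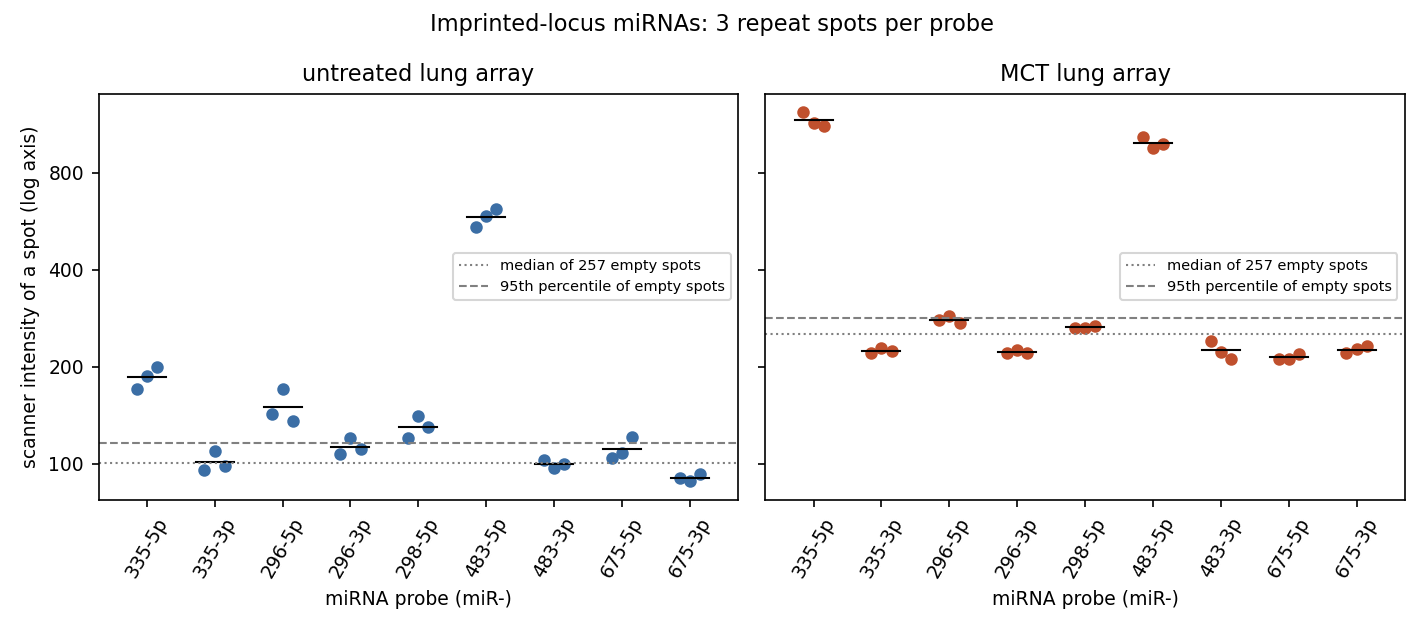
Scanner intensity (log axis) of the 3 repeat spots of each member on the untreated and the MCT array; black bars are means, and grey lines mark the median and the 95th percentile of the 257 empty spots of that array. miR-335-5p and miR-483-5p stood clear of the empty spots on both arrays, and 5 members lay near or below them throughout.

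miR-335-5p, the Mest miRNA, is studied as an inhibitor of metastasis in human breast cancer, where it targets SOX4 and tenascin C. Its spots read 170, 188 and 200 on the untreated array and 1235, 1143 and 1120 on the MCT array. The lowest MCT spot was far above the highest untreated spot, so the arrays did not overlap. Raw spots all higher on the MCT array were the rule, at 97.3% of the miRNAs detected in either library. The ratio of the mean scanner intensities was 6.27, while the median over the detected miRNAs was 2.07 and that over the empty spots 2.53. After normalization the log2 intensity was 7.89 ± 0.20 in untreated and 9.32 ± 0.092 in MCT lung, a log2 ratio of 1.44 ± 0.22, or 2.70-fold. The normalized spots did not overlap either, as in 69.7% of the detected miRNAs. This was the fifth highest ratio among the 310 miRNAs detected on both arrays. In the authors' deposited table the values were 138.8 and 642.4, a log2 ratio of 1.87 with a pseudocount of 50. Set against the dim spots around it, taken as the 25th percentile of its neighbours, the probe was 1.96 times as bright in untreated lung and 5.43 times in MCT lung.

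miR-335-3p, cut from the same hairpin, was detected in neither library. Its spots read 95.7, 110 and 98.4 in untreated lung and 221, 229 and 223 in MCT lung, within the empty spots of the first array and below the median of those of the second. The log2 ratio was 0.074 ± 0.17, with overlapping spots. It was 1.07 and 1.04 times as bright as the dim spots nearby, not well above background on either array, so the ratios of the 2 arms could not be compared.

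miR-483-5p, the Igf2 miRNA, was the other member detected in both libraries. The other arm, miR-483-3p, is known to be high in human Wilms tumours along with IGF2. The 5p spots read 541.04, 586 and 617 in untreated and 1033, 951 and 982 in MCT lung. All MCT spots were thus brighter on the scanner, as for most miRNAs, but the 1.70-fold difference was less than the median of 2.07 for those miRNAs. After normalization the order turned, and the log2 intensity was 9.81 ± 0.089 for untreated and 9.08 ± 0.043 for MCT lung. The log2 ratio was -0.74 ± 0.099, 1.67-fold lower in the MCT library. The normalized spots did not overlap, and the difference fell short of 2-fold. It ranked 24 from the lowest among the 310 miRNAs detected on both arrays. The sign of the unadjusted ratio depended on the scaling. It was 0.62 without normalization, 0.40 with the arrays centred on the median or scaled by the 5S ribosomal RNA probes and 0.027 with centring on the 75th percentile. These 4 settings differ only by a constant added to every miRNA. With cyclic loess it was -0.54. Relative to the median of the detected miRNAs, the ratio of miR-483-5p was below 0 in every setting run, with -0.69 as reported. It ran from -0.80 with a local background to -0.082 in those 4, which is smaller than the reported SD over spots of 0.099. Its rank from the lowest of the 310 was 92 in those 4, and 44 with cyclic loess and with the authors' values. In the authors' deposited table miR-483-5p had 782.7 and 477.3.

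miR-483-3p was detected in neither library, with spots of 103, 96.8 and 99.99 in untreated and 240, 222 and 212 in MCT lung. These lay at the level of the empty spots on the untreated array and below their median on the MCT array. Its log2 ratio was 0.10 ± 0.18.

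**Figure D2:**
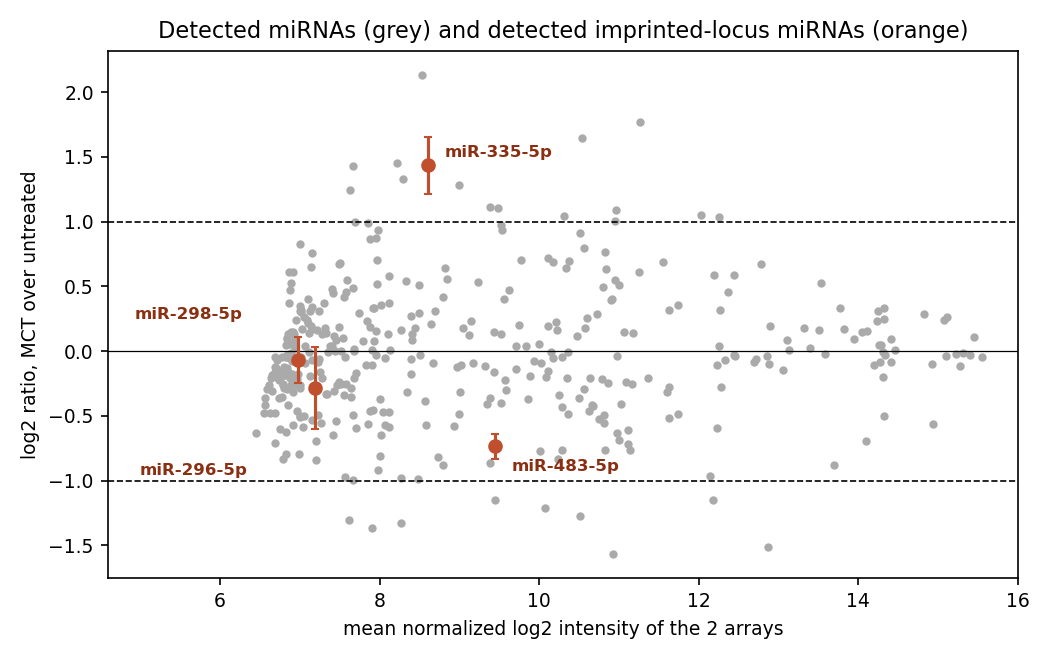
Log2 ratio of MCT over untreated lung against the mean normalized log2 intensity, for miRNAs detected in either library (grey) and the 4 detected members (orange, with the SD over spots); dashed lines mark 2-fold. miR-335-5p lay above the 2-fold line at 1.44, miR-483-5p at -0.74 above the lower line, and miR-296-5p and miR-298-5p near 0 at the dim end.

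The miRNAs of the Gnas locus were dim. miR-296-5p, which targets the growth factor receptor regulator HGS in human endothelial cells, had spots of 143, 171 and 136.3 in untreated and 280, 288 and 273 in MCT lung. All untreated spots were above the limit of 116, and of the MCT spots 1 passed the limit of 284. Against the dim spots around it, the probe was 1.46 times as bright in untreated lung and 1.33 times in MCT lung. The normalized log2 intensities were 7.33 ± 0.31 and 7.05 ± 0.060, and the spots overlapped because the untreated ones ran from 7.10 to 7.69. The log2 ratio was -0.28 ± 0.32. As the MCT mean was under the limit, the untreated mean was also set against the lowest level of a detected miRNA on the MCT array, 7.07. The mean lay 1.20-fold above that level, but the lowest untreated spot, 7.10, lay close to it, so no firm bound is given. The measured ratio also depended on the setting. It was -0.20 without background correction, less than 1.20-fold, and 0.046 after a lowess fit of ratio on GC content was subtracted. Without normalization it was 0.25, with centring on the median 0.030 and with scaling by the 5S probes 0.029. Over the 15 alternative settings it ran from -0.91 with the empty-spot median subtracted to 0.25, with 11 below 0 and 4 above. Relative to the median of the detected miRNAs it was below 0 in all settings but that with the GC fit subtracted.

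miR-298-5p, from the neighbouring hairpin, is known in mouse cells as a repressor of the beta-secretase gene Bace1. It had spots of 121, 141 and 130 in untreated and of 264, 264 and 268 in MCT lung, above the limit on the first array and under it on the second. Against the dim spots nearby, miR-298-5p was 1.31 times as bright in untreated lung and 1.29 times in MCT lung. Its log2 ratio was -0.070 ± 0.18 with overlapping spots, and no fold bound is given, since the untreated level was below the lowest detected level of the MCT array. Over the 15 alternative settings the ratio of miR-298-5p ran from -0.74 with the empty-spot median subtracted to 0.34 without normalization. It was below 0 in 9 and above 0 in 6. miR-296-3p had spots of 107, 121 and 111 in untreated and of 221, 226 and 220 in MCT lung, and was detected in neither. Its log2 ratio was -0.19 ± 0.14. The 3p arm of miR-298, which is not among the members, read 91.1 to 102 in untreated and 209 to 227 in MCT lung, also at the level of the background.

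The H19 miRNAs were detected in neither library. miR-675 is known to restrain growth of the mouse placenta and to lower Igf1r. The spots of miR-675-5p read 104, 108 and 121 in untreated lung, of which 1 passed the limit. Its MCT spots of 212, 211 and 218 were all below the median of the empty spots. miR-675-3p had spots of 90.2, 88.2 and 92.9 in untreated and of 220, 227 and 232 in MCT lung, below the empty-spot median on both arrays. Their log2 ratios were -0.26 ± 0.18 and 0.35 ± 0.093. In both cases the normalized spots did not overlap although neither probe was above background, as in 38% of the miRNAs detected in neither library, and the opposite signs belong to 2 arms of 1 hairpin. The authors' deposited table lists miR-675-3p at 0 in untreated and 29.5 in MCT lung.

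The 5 members detected in neither library, miR-335-3p, miR-296-3p, miR-483-3p, miR-675-5p and miR-675-3p, are examples of probes not well above background. Their scanner intensities were 1.93 to 2.50 times as high on the MCT array. For all 732 miRNAs detected in neither library the median was 2.16, and the 10th and 90th percentiles were 1.98 and 2.47. Their mean intensity was 1.03 to 1.10 times that of the dim spots nearby in untreated and 1.00 to 1.14 times in MCT lung. Their log2 ratios ran from -0.26 to 0.35, and in 3 of the 5 the normalized spots did not overlap between the arrays, beside the 38% over all 732. The ratios of miR-296-5p and miR-298-5p lay within or next to the range of these 5, and those of miR-335-5p and miR-483-5p outside it. That range is not the range of all 732. Among the others, miR-547-5p had -1.35 ± 1.98 and miR-1948-5p 0.65 ± 1.06.

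Over the 4 detected members the median log2 ratio was -0.18, with 1 above and 3 below 0, and over all miRNAs detected in either library it was -0.044, with 179 above and 230 below 0. Of all miRNAs, 403 were detected in untreated and 316 in MCT lung, 310 of them in both. More thus entered through the untreated array alone, a selection that tilts both sign counts toward values below 0. Of the 4, miR-296-5p and miR-298-5p passed the detection limit only on the untreated array. With the limit from dim miRNA spots they passed on both. Over the 2 members detected on both arrays the median was 0.35, beside 0.023 over all 310 such miRNAs. That 0.35 is the midpoint of 1.44 for miR-335-5p, chosen with its high ratio in view, and -0.74 for miR-483-5p, and describes neither. With the GC trend removed the median of the 4 was 0.13. The miRNAs whose ratio was nearest to that of miR-335-5p were miR-466l-3p at 1.43 ± 0.13, miR-466b-3p at 1.45 ± 0.24 and miR-466a-3p at 1.33 ± 0.17. They were chosen by the difference of their log2 ratio from that of miR-335-5p, a likeness over 2 arrays only. Their GC content was low, at 22.7%, 36.4% and 34.8%, as was that of miR-335-5p at 30.4%. All 3 are of the miR-466 family, which with miR-669, miR-467 and miR-297 has many of its hairpins in an intron of the imprinted mouse gene Sfmbt2. Of 71 probes listed for these families by the start of the name, 41 were detected in either library, 5 were called higher and 0 lower, with a median ratio of -0.12. Over all miRNAs detected in either library, 4.16% were called higher and 2.2% lower. Many miRNAs of these families are near-identical in sequence, and whether their probes share signal was not tested. In the other imprinted cluster listed, 103 probes were listed for the Dlk1-Dio3 cluster, of which 14 were detected, 0 were higher and 0 lower, with a median ratio of -0.10. Of miR-184, which lies near the imprinted mouse gene Rasgrf1, the 5p arm was detected in both libraries with a ratio of 0.49 ± 0.061 and the 3p arm in neither.

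**Figure D3:**
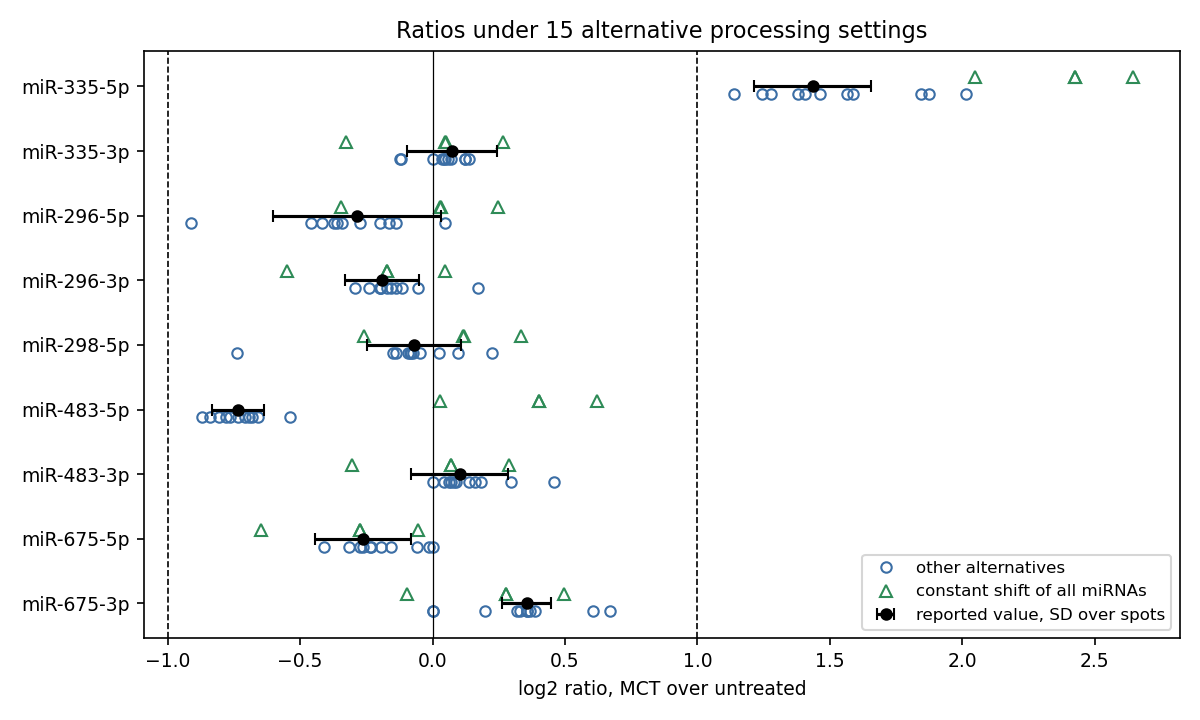
Log2 ratio (MCT over untreated) of each of the 9 members as reported (black, SD over spots) and under 15 alternative settings, with the 4 that shift every miRNA by a constant as green triangles and all others as blue circles; dashed lines mark 2-fold. miR-335-5p stayed above 2-fold in all 15, from 1.14 to 2.64, and miR-483-5p was above 0 under the 4 constant shifts and below 0 as reported and under the 11 others.

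Detected miRNAs of high GC content had lower ratios than those of low GC content, as the medians here show. Each member was set beside miRNAs detected in either library whose GC content was within 5 percentage points. Some of these passed the limit only on the untreated array, which can pull such medians down, though this was not measured. The GC trend that was removed was fitted to the 310 miRNAs detected on both arrays. miR-335-5p, at 30.4% GC, had a ratio of 1.44, and the 26 such miRNAs had a median of 0.026, with 10th and 90th percentiles of -0.58 and 1.04. With the GC trend removed its ratio was 1.14, still past 2-fold. miR-483-5p, at 54.5% GC, had -0.74 beside a median of -0.049 over 130 miRNAs, whose 10th and 90th percentiles were -0.48 and 0.56, and its ratio with the trend removed was -0.74. For miR-296-5p, at 66.7% GC, the median over 65 miRNAs was -0.21, close to its own -0.28, and for miR-298-5p, at 65.2%, the median over 70 was -0.20 beside -0.070. With the trend removed these 2 had 0.046 and 0.22. The part of base composition in the ratios was not tested.

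**Figure D4:**
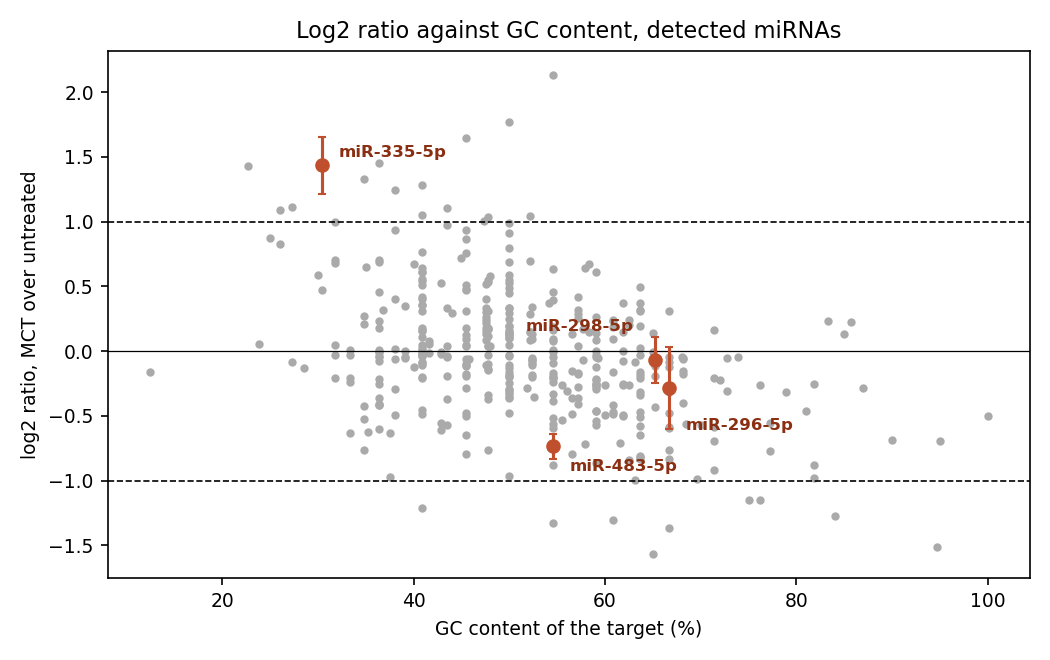
Log2 ratio of MCT over untreated lung against the GC content of the target (%), for miRNAs detected in either library (grey) and the 4 detected members (orange, with the SD over spots); dashed lines mark 2-fold. miR-335-5p stood above most miRNAs of low GC content, and miR-296-5p and miR-298-5p lay among GC-rich miRNAs with ratios mostly below 0.

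Markers of lung cell types were present on both arrays. Of 21 probes for endothelial, smooth muscle, epithelial, fibroblast, leukocyte and erythroid miRNAs, 17 were detected in untreated and 17 in MCT lung, and of 11 probes for muscle, liver, brain and endocrine miRNAs, 5 and 4. The summed level of the 3 fibroblast miRNAs was 16169 in untreated and 17119 in MCT lung on the normalized linear scale. The 2 smooth muscle miRNAs summed to 38891 and 47864, and the 7 epithelial ones to 16636 and 20286. The 2 endothelial miRNAs summed to 41576 and 38338, with 2 detected in untreated and 1 in MCT lung, the 2 erythroid ones to 35597 and 34653, and the 5 leukocyte ones to 13107 and 13657. Such sums follow their brightest probe and are not totals of a cell type. In untreated lung the log2 intensity was 15.3 for miR-126-3p and 6.99 for miR-126-5p, and the erythroid miR-144-3p was detected in neither library. Of all 21, 1 was called, the leukocyte miRNA miR-223-3p, which was lower at -1.21 ± 0.21. The part of these cell types in the ratios of the members was not tested.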

How the data were processed

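Per the labels' protocols, total RNA was poly(A)-tailed, tagged, hybridised by a service provider to a microfluidic chip and stained with Cy3. Per the file headers, the deposited scanner tables hold median pixel intensities per spot, linear and without background subtraction as the empty spots show. A deposited table of probe intensities was processed by the authors in a way the sources used here do not state. The members, lists and settings were chosen with earlier results of these data known. All 9 members are named, with the 3 detected miRNAs nearest in ratio to the member of largest ratio and any miRNA sharing a member's seed, of which there was none.

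Background was removed with limma 3.58.1 in R 4.3.3 (normexp, offset 50). Control spots were removed, log2 values quantile normalized, and 3 spots averaged per miRNA. For dim miRNAs that offset shrinks the ratio. The steps were tested on simulated data. Alternatives changed the background, scaling, spots, detection, threshold, GC trend and values. A local background was added after the data were seen. Its dim spots are the 25th percentile within 5 rows and 3 columns. Python 3.11.15 did the rest. Precision is limited by the number of arrays.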

Additional observations from a re-analysis of the deposited data

How the results depend on the processing

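The call of miR-335-5p as higher held in all 20 alternatives, though some of them could not undo it. A threshold of 1.5-fold and no detection filter only loosen the rule, and its spots cleared every detection limit tried on both arrays. The authors' values are 1 per miRNA, so spot overlap could not be checked on them. Its log2 ratio ran from 1.14 with the GC trend removed to 2.64 without normalization, and leaving out 1 repeat spot gave 1.28 to 1.56. No other member passed 2-fold in any alternative, and at a threshold of 1.5-fold 1 member, miR-483-5p, was lower. With the limit from dim miRNA spots 4 members were detected in MCT-treated lung. Counts over all miRNAs depended on the settings, with 17 higher and 9 lower as reported. They were 46 and 38 with the empty-spot median subtracted, 37 and 35 with the local background, 142 and 0 without normalization, 97 and 0 with the arrays centred on the median or set by the 5S probes, and 46 and 44 at 1.5-fold. With centring on the 75th percentile 49 were higher, with the GC trend removed 8, and with an offset of 16 there were 19 lower and with the authors' values 16. The cause was not tested. These scalings moved the median ratio of detected miRNAs from -0.044 to 0.70 without normalization, 0.49 when centred on the median, 0.48 by the 5S probes and 0.11 on the 75th percentile. No paired analysis was possible because each group had 1 array.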
